A study of Mus musculus with 12 samples.

Results

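Chemokine ligands were examined in bulk skin RNA from 12 mice. They were chosen by symbol, as every gene listed as Ccl, Cxcl, Xcl or Cx3cl followed by a digit, which gave 42 of the 55453 genes in the count table. Of the 42, 32 had at least 10 counts over the 12 mice, and all 32 passed the filter on low counts and were tested. A further 4 had fewer counts than that (Cxcl17 with 9, Ccl21b with 7, Cxcl15 with 3 and Ccl26 with 3), and 6 were silent, with 0 counts in every mouse (Ccl21a, Ccl21c, Ccl27, Ccl27b, Ccl19-ps1 and Ccl19-ps3). The Ccl21 and Ccl27 genes have near-identical copies in the mouse genome between which reads can be split or lost, so the 0 counts of these copies, and the level of Ccl27a, are uncertain. In the GENCODE M21 annotation of GRCm38, 12 of the 32 lie on chromosome 11, 9 on chromosome 5, 4 on chromosome 8, 2 each on chromosomes 1, 4 and 13, and 1 on chromosome 6.

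The study compared WT mice with mice lacking Thy-1, a glycosylated surface protein of fibroblasts and other cells, after PBS or bleomycin (BLM), a drug that causes dermal fibrosis where it is injected. Each genotype had 3 mice with PBS (WT PBS and KO PBS) and 3 with bleomycin (WT BLM and KO BLM), all labelled C57/BL6, and the skin was taken on day 21. Bleomycin was given at 10 mg/kg per day under the skin of the back for up to 14 days, and the PBS mice received PBS in its place. The Thy-1 KO is carried by every cell and not by a chosen cell type, and the methods describe the KO mice as females of 8 to 12 weeks.

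Chemokines are small secreted proteins that attract leukocytes along a gradient by binding G protein-coupled receptors. The CC ligands mainly recruit monocytes, T cells, eosinophils and dendritic cells, the CXC ligands next to Cxcl1 recruit neutrophils through CXCR2, and those next to Cxcl10 recruit activated T cells through CXCR3. Others, such as Cxcl12 and Cxcl14, are made in resting tissue.

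The libraries held 26473700 to 38890450 counts. Levels are given as CPM (the count relative to the TMM-normalised size of the library), differences as log2 fold changes with their standard errors (SE), and a ligand is said to rise or fall only at an edgeR quasi-likelihood p, adjusted by the Benjamini-Hochberg method over 18311 genes, under 0.05. Thy1 was lower in KO than in WT mice of the same treatment, at 45.6 to 96.9 CPM in KO PBS against 104 to 150 CPM in WT PBS, and at 84.7 to 128 CPM in KO BLM against 231 to 416 CPM in WT BLM. Reads on Thy1 were thus counted in every KO mouse, and which exons the KO lacks is not given in the sources used here. A list of 24 genes of growing hair set mice of a group apart. Its summed level was at least 48897.5 CPM in the 3 WT PBS mice, 75720 CPM in KO PBS mouse 136 and 37420 CPM in KO BLM mouse 141, but at most 6388 CPM in the other 7 mice. Results are therefore also given without mice 136 and 141, and the part of the hair stage in any difference below was not tested. In WT mice, treatment and hair stage cannot be told apart, as the sum was 243 to 944 CPM in WT BLM mice. Leaving out mice 136 and 141 does not change that. In KO mice it leaves 257 and 409 CPM under PBS against 3868 and 6388 CPM under bleomycin.

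The WT comparison of bleomycin with PBS had more ligands past the threshold than any other: 16 of 32 rose and 1, Cxcl14, fell, where 34% of all genes tested passed the threshold (19.8% higher and 14.1% lower). The median log2 fold change was 1.75 over the 32 ligands and 0.02 over all genes. In Thy-1 KO skin the median was 1.11, against -0.01 over all genes, but 1 of 32 ligands, Ccl3, passed the threshold, where 0.306% of all genes did. At an unadjusted p under 0.05 there were 18 of 32 in KO skin (20% of all genes) and 20 of 32 in WT skin (47.4% of all genes). With DESeq2 the counts were 12 in KO skin (5.95% of all genes) and 19 in WT skin (34.7% of all genes). Of the 12 in KO skin, 10 were higher (Ccl2, Ccl3, Ccl4, Ccl5, Ccl7, Ccl17, Cxcl1, Cxcl2, Cxcl5 and Cxcl10) and 2 lower (Cxcl12 and Cxcl13). The bleomycin and PBS mice did not overlap for 20 ligands in WT skin (57% of all genes) and for 12 in KO skin (19.3% of all genes). In bulk tissue, more cells of a type and more RNA per cell cannot be told apart.

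These counts depended on single mice. In WT skin 9 ligands passed without WT BLM mouse 147 (17.6% of all genes) or without WT PBS mouse 160 (13.9%) and 10 without WT PBS mouse 161 (18.1%), while 20 passed without KO mice 136 and 141 (49%). Of the 17 ligands called, 8 passed under each of the 18 alternatives (Ccl3, Ccl7, Ccl2, Ccl5, Cxcl14, Cxcl16, Cxcl10 and Ccl12). In KO skin 11 ligands passed without mice 136 and 141 (22.3% of all genes), 8 without mouse 141 alone (6.19%), 4 without mouse 136 alone (14%) and 0 without any 1 of the other 10 mice (at most 0.123%).

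**Figure D1:**
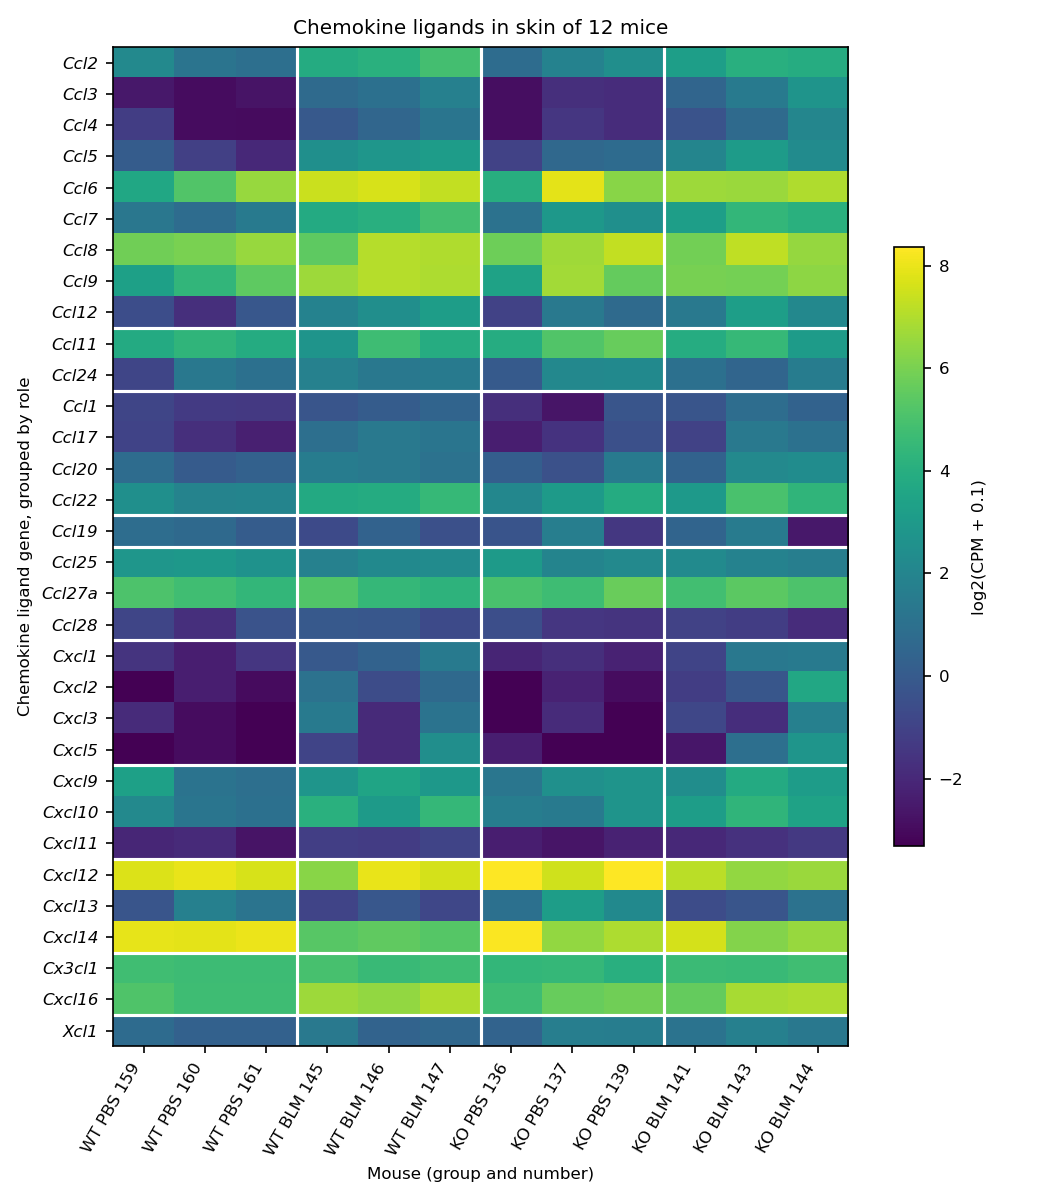
Level of each of the 32 chemokine ligands (rows, grouped by role) in each of 12 mice (columns, 3 per group), as log2(CPM + 0.1). Rows for the CXCR2 ligands turn from dark to lighter under bleomycin in both genotypes, and Cxcl14 is brightest in the 3 WT PBS mice, KO PBS mouse 136 and KO BLM mouse 141.

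Measured per kilobase of exon, which allows genes to be compared, the 5 highest ligands averaged over the mice were Ccl8 at 185, Cxcl14 at 79.5, Ccl6 at 61.3, Cxcl12 at 24.1 and Cxcl16 at 22.7 CPM per kb. The order differed between groups: Ccl8 was the highest in each, but in WT BLM mice Ccl6 (98.3), Ccl9 (39), Cxcl16 (34.9) and Ccl7 (24.9 CPM per kb) came next, ahead of Cxcl14 at 22.6 and Cxcl12 at 21.3 CPM per kb. The lowest of the 32 over all mice were Cxcl11 at 0.0524 and Ccl28 at 0.0952 CPM per kb. The ligands that rose most under bleomycin were among the lower ones: Ccl3 stood 20th at 1.94, Cxcl2 25th at 0.736, Cxcl5 27th at 0.655 and Cxcl3 30th at 0.223 CPM per kb.

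The level summed over all 32 ligands overlapped between WT PBS and WT BLM mice (692 to 809 against 706 to 1031 CPM) and was lower in every KO BLM than in any KO PBS mouse (742 to 829 against 845 to 969 CPM). The sum was 745 ± 59.5 CPM in WT PBS and 907 ± 175 CPM in WT BLM, and 908 ± 61.8 CPM in KO PBS and 796 ± 46.9 CPM in KO BLM (mean ± SD, n = 3 mice each). Without Cxcl12 and Cxcl14 it was 278 ± 61.5 CPM in WT PBS and 692 ± 90.2 CPM in WT BLM, and 454 ± 224 CPM in KO PBS and 564 ± 141 CPM in KO BLM. The WT groups did not overlap in that sum (at most 348 against at least 588 CPM), while the KO groups did, because KO PBS mice ran from 205 CPM in mouse 136 to 637 CPM in mouse 137.

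**Figure D2:**
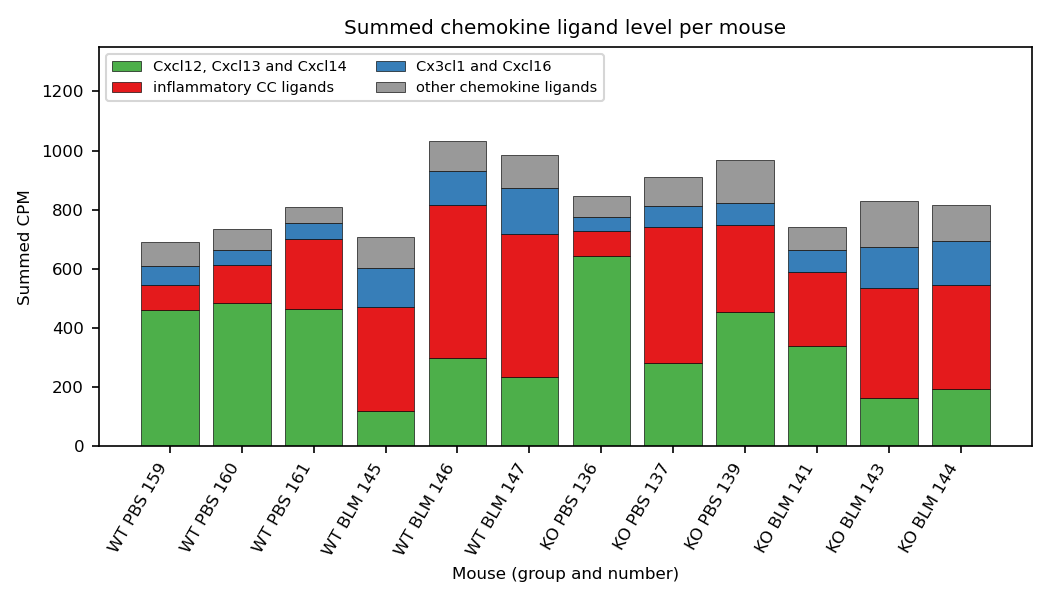
Summed CPM of the chemokine ligands in each of the 12 mice, stacked by role. The red share, the inflammatory CC ligands (Ccl2 to Ccl9 and Ccl12), is 88 to 238 CPM in WT PBS and 353 to 519 CPM in WT BLM mice, while the green share (Cxcl12, Cxcl13 and Cxcl14) is 459 to 485 CPM in WT PBS and 119 to 298 CPM in WT BLM mice.

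The CXCR2 ligands Cxcl1, Cxcl2, Cxcl3 and Cxcl5, which draw neutrophils, all 4 rose in WT skin, with a median log2 fold change of 4.79. In KO skin their median was 5.36, and none of the 4 passed the threshold in edgeR. With DESeq2 the adjusted p in KO skin was 0.000293 for Cxcl1, 0.000161 for Cxcl2, 0.0382 for Cxcl5 and 0.0512 for Cxcl3. The 4 genes lie together on chromosome 5. Their summed level went from 0.316 ± 0.0779 to 6.57 ± 4.78 CPM in WT skin and from 0.289 ± 0.175 to 10.7 ± 13 CPM in KO skin (mean ± SD, n = 3).

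Cxcl1, Cxcl2 and Cxcl3 also shared a stretch of promoter. RefSeq windows (250 bases before to 50 after the start, GRCm38.p6) were given for 23 of the 32 ligands. The longest run of letters that the windows of these 3 genes have in common before the start was GGGAATTTCCC, which contains the letters of a strong NF-κB site. On either strand it was in these 3 of the 23 ligands (13%) and in 14 of 27025 genes (0.0518%), so it is uncommon, and it was looked for because these 3 genes share it. The 120 bases before each start are shown because the run stands in the same orientation in each, from 71, 97 and 73 bases before the start, marked in capitals. They are at chr5:90891125-90891244, chr5:90903779-90903898 and chr5:90785981-90786100, all on the plus strand.
Cxcl1: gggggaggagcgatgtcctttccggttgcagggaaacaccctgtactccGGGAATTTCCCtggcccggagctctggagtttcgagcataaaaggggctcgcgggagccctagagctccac
Cxcl2: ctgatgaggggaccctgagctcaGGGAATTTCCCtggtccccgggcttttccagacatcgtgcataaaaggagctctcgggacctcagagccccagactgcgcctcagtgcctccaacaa
Cxcl3: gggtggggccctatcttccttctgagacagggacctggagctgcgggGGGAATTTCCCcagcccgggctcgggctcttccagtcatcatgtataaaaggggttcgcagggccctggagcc

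TATAAA, the letters of a TATA box, was in 8 of the 23 windows on either strand, or 34.8%, against 15.7% of genes. These counts take a match at any position in the window. In Ccl12, Ccl8 and Cxcl3 it began 31, 32 and 30 bases before the start. In the other ligands the matches began from 6 (Cx3cl1) to 224 (Ccl9) bases before it. A match is a string of letters and not a measured site.

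Cxcl1 (chr5:90891241-90893115), a chemoattractant of neutrophils, was at 0.237, 0.0987 and 0.255 CPM in WT PBS mice and at 0.861, 1.17 and 2.69 CPM in WT BLM mice. Every WT BLM mouse was above every WT PBS mouse, with a log2 fold change of 2.97 ± 0.72 (SE, adjusted p = 0.0149). Cxcl1 was at 0.133, 0.200 and 0.119 CPM in KO PBS mice and at 0.429, 2.45 and 2.72 CPM in KO BLM mice. These groups did not overlap either, and the value was 3.59 ± 0.74 (adjusted p = 0.0724). The WT call was lost without WT PBS mouse 160 or WT BLM mouse 147, and the log2 fold change with 1 WT mouse left out was 2.34 to 3.25.

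Cxcl2, which macrophages and mast cells release to bring in neutrophils, had 0, 3 and 1 counts in WT PBS mice (0, 0.0987 and 0.0255 CPM) and was at 2.04, 0.554 and 1.48 CPM in WT BLM mice. Pooled over mice, its WT BLM level was 31.6 times its WT PBS level, with a 95% counting interval of 12 to 118. The fitted log2 fold change was 4.93 ± 1.60 (SE, adjusted p = 0.0391), and this call was lost when any 1 of the 6 WT mice was left out. Cxcl2 in KO skin was at 0, 0.114 and 0.0298 CPM under PBS and at 0.337, 0.775 and 12.8 CPM under bleomycin. Mouse 144 thus held most of the KO BLM counts, 363 of 399, and the pooled ratio was 81.8 with an interval of 34.8 to 253. Intervals of this kind cover counting error and not the spread between mice.

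Cxcl3 was at 0.169, 0.0329 and 0 CPM in WT PBS mice and at 2.74, 0.163 and 2.10 CPM in WT BLM mice. WT BLM mouse 146 lay within the range of the PBS mice, so these groups overlapped although the test passed (log2 fold change 4.65 ± 1.56, adjusted p = 0.0433), and the call was kept when mouse 146 was left out and lost when any 1 of the other WT mice was. The KO PBS mice were at 0, 0.171 and 0 CPM and the KO BLM mice at 0.459, 0.186 and 3.32 CPM, with 4.37 ± 1.56 (adjusted p = 0.175).

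Cxcl5 (chr5:90759360-90761624), which epithelial cells make under inflammatory signals, had 1 count over the 3 WT PBS mice and was at 0.431, 0.163 and 5.32 CPM in WT BLM mice. WT BLM mouse 147 held 162 of the 178 counts, and it also had the highest summed level of the neutrophil list in WT skin, 444 CPM against 84.7 and 64.6 CPM in the other two. Of the 444 CPM, S100a8 and S100a9, which stressed epidermis also makes, held 414 CPM, and the other 9 genes of the list summed to 29.7 CPM in mouse 147 and to 12.8 and 24.6 CPM in mice 145 and 146. Most of these smaller sums was 1 gene, Csf3r, at 11.6 to 27.5 CPM in WT BLM mice. The epidermal sum was also highest of the WT mice in mouse 147, at 31937 CPM, and the part of either cell type in the level of Cxcl5 was not tested. The pooled ratio was 197, with a counting interval of 35.0 to 7843, and the fitted log2 fold change of 7.13 ± 2.23 (adjusted p = 0.0346) lost its call without mouse 147 or without any 1 WT PBS mouse. Cxcl5 in KO skin was at 0.0997, 0 and 0 CPM under PBS and at 0.0612, 1.83 and 6.72 CPM under bleomycin, and KO BLM mouse 141 was within the PBS range. Its log2 fold change there was 6.36 ± 1.96 (adjusted p = 0.150).

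The 9 inflammatory CC ligands (Ccl2 to Ccl9 and Ccl12), which attract monocytes, macrophages and T cells, were the most numerous role. In WT skin 7 of the 9 rose, with a median log2 fold change of 3.14, and Ccl6 and Ccl8 did not pass. In KO skin 1 of 9 rose, Ccl3, with a median of 1.83 over the 9. Their sum went from 151 ± 78.2 to 453 ± 88.0 CPM in WT skin and from 281 ± 188 to 323 ± 64.6 CPM in KO skin (mean ± SD, n = 3). With DESeq2 the adjusted p in KO skin was also under 0.05 for Ccl2, Ccl4, Ccl5 and Ccl7 (0.00359, 0.00368, 0.00563 and 0.0238). It was not for Ccl6, Ccl8, Ccl9 or Ccl12.

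Ccl3 (chr11:83647844-83649355, minus strand), a macrophage product that binds CCR1, was the ligand that passed the threshold in both genotypes. The WT PBS mice had no more than 2 counts each (0.0676, 0.0329 and 0.0509 CPM), and Ccl3 was at 1.57, 1.86 and 3.28 CPM in WT BLM mice. The groups were far apart: the pooled ratio was 43.7 with a counting interval of 18.4 to 136, and the log2 fold change was 5.37 ± 0.80 (SE, adjusted p = 0.00415). Ccl3 in KO skin was at 0.0332, 0.200 and 0.179 CPM under PBS and at 1.32, 2.61 and 6.61 CPM under bleomycin. Every KO BLM mouse was above every KO PBS mouse, by 4.61 ± 0.71 (adjusted p = 0.0387). The KO call rested on the whole set of mice: it was lost when any 1 mouse other than 136 or 141 was left out, with an adjusted p of up to 0.148 when that was a KO mouse, while the log2 fold change then stayed between 3.77 and 4.99.

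Ccl4, the neighbour of Ccl3 on chromosome 11 and another macrophage product, was at 0.338, 0.0329 and 0.0255 CPM in WT PBS mice and at 0.861, 1.34 and 2.26 CPM in WT BLM mice, a log2 fold change of 3.53 ± 0.96 (SE, adjusted p = 0.0220). That call was lost without WT PBS mouse 160 or 161 or WT BLM mouse 147. The KO PBS mice were at 0.0332, 0.257 and 0.179 CPM and the KO BLM mice at 0.704, 1.55 and 3.96 CPM, with 3.66 ± 0.93 (adjusted p = 0.115). In both genotypes the bleomycin mice lay above all PBS mice. Ccl5, which T cells release and which binds CCR1 and CCR3, was at 0.947, 0.362 and 0.153 CPM in WT PBS mice and at 5.48, 6.85 and 8.63 CPM in WT BLM mice. Its log2 fold change of 3.86 ± 0.68 (adjusted p = 0.00561) held with any 1 mouse left out. Ccl5 in KO skin was at 0.399, 1.43 and 1.61 CPM under PBS and at 3.89, 8.53 and 4.91 CPM under bleomycin, again without overlap, with 2.32 ± 0.62 (adjusted p = 0.119).

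The CCR2 ligands, which call monocytes from the blood, rose together in WT skin. Ccl7 was at 2.40, 1.64 and 2.73 CPM in WT PBS mice and at 14.1, 16.5 and 29.2 CPM in WT BLM mice, a log2 fold change of 3.14 ± 0.51 (SE, adjusted p = 0.00477). In KO PBS mice it was at 1.99, 7.46 and 5.60 CPM and in KO BLM mice at 9.24, 21.2 and 16.8 CPM, with 1.65 ± 0.48 (adjusted p = 0.139). KO PBS mice 137 and 139 were above all WT PBS mice, and mouse 136 was among them. Ccl12, near Ccl2 on chromosome 11 with Ccl7 and Ccl11 between them, was at 0.575, 0.197 and 0.815 CPM in WT PBS mice and at 3.52, 5.41 and 9.02 CPM in WT BLM mice, a log2 fold change of 3.48 ± 0.76 (adjusted p = 0.0108). Ccl12 in KO skin was at 0.399, 2.54 and 1.52 CPM under PBS and at 2.54, 9.15 and 4.28 CPM under bleomycin, so that KO BLM mouse 141 met the highest PBS mouse. Ccl2 itself ran from 1.81 to 4.46 CPM in WT PBS and from 14.5 to 28.8 CPM in WT BLM mice, a log2 fold change of 2.84 ± 0.49 (adjusted p = 0.00559), and from 1.66 to 5.33 CPM in KO PBS and 9.30 to 16.4 CPM in KO BLM mice, with 1.94 ± 0.48 (adjusted p = 0.106).

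The abundant CC ligands Ccl6 and Ccl9 varied widely between mice that had not received bleomycin. Ccl6 (chr11:83587882-83593087, minus strand), which macrophages and other myeloid cells make, was at 12.4, 36.5 and 95.1 CPM in WT PBS mice and at 170, 201 and 158 CPM in WT BLM mice. The groups did not overlap, yet the log2 fold change of 1.88 ± 0.84 did not pass the threshold in edgeR (adjusted p = 0.102). With DESeq2 the adjusted p was 0.0479. In KO PBS mice Ccl6 was at 16.0 CPM in mouse 136, 233 CPM in mouse 137 and 77.3 CPM in mouse 139, and in KO BLM mice at 101, 96.3 and 124 CPM, inside the PBS range (-0.03 ± 0.81, adjusted p = 0.989). Ccl9, a CCR1 ligand beside it, rose from 9.97–44.1 CPM in WT PBS to 99.0–134 CPM in WT BLM mice, by 2.25 ± 0.71 (adjusted p = 0.0352), and was 10.5–107 CPM in KO PBS and 60.7–83.9 CPM in KO BLM mice. The WT call for Ccl9 was kept without WT PBS mouse 161 and lost without any other 1 WT mouse. Ccl8, the highest ligand per length, was at 56.4, 65.2 and 93.6 CPM in WT PBS, 43.6, 134 and 124 CPM in WT BLM, 54.6, 105 and 155 CPM in KO PBS and 58.6, 153 and 92.5 CPM in KO BLM mice. All its groups overlapped, and its 95% interval for the log2 fold change was -0.60 to 1.58 in WT and -1.14 to 1.04 in KO skin.

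**Figure D3:**
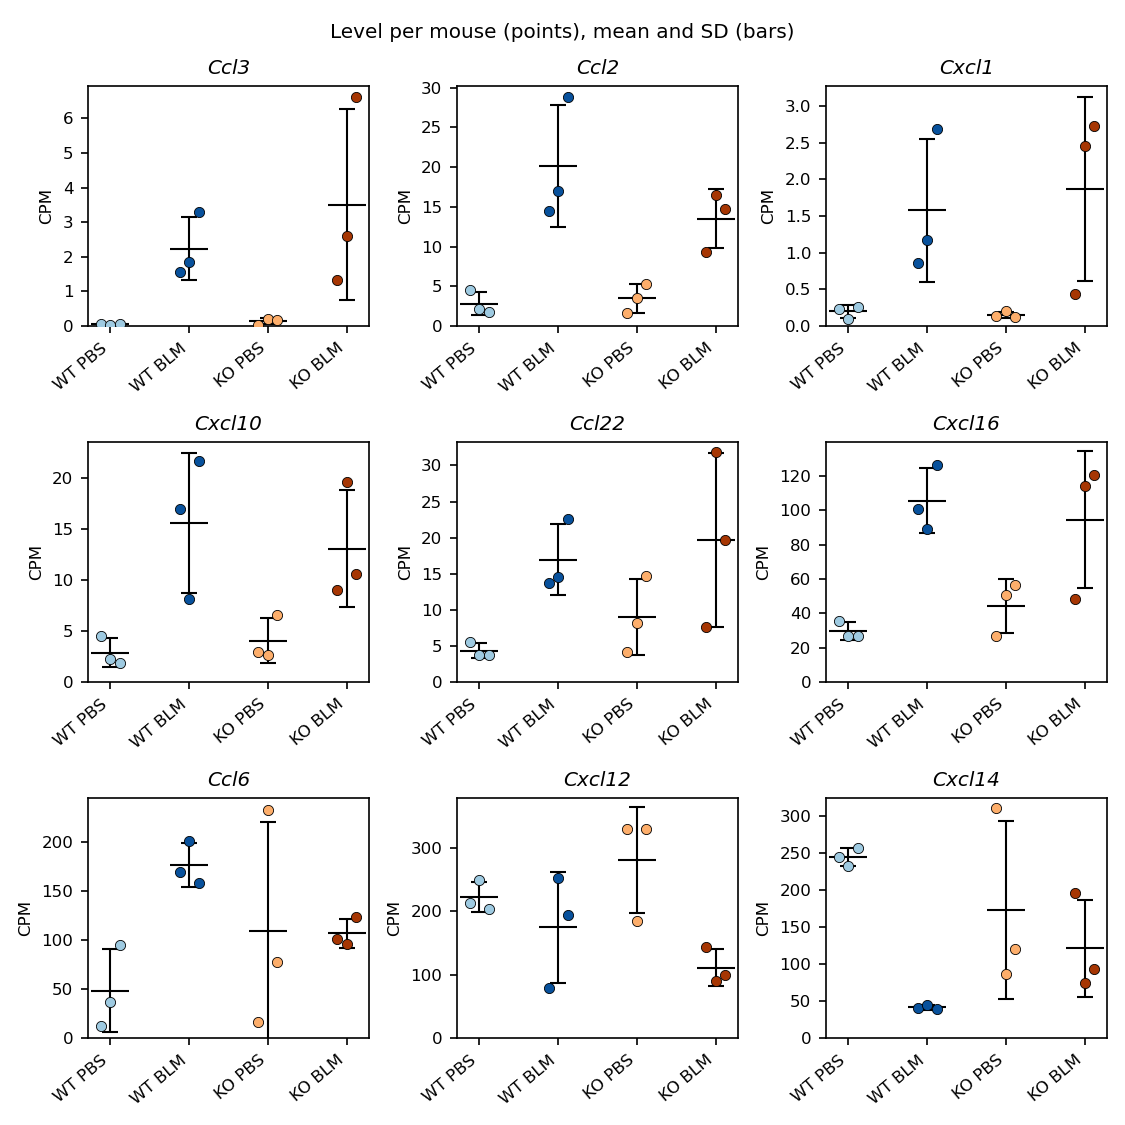
CPM of 9 chemokine ligands in each mouse (points), with the group mean and SD (bars, n = 3, not drawn below 0). Ccl3, Ccl2, Cxcl1 and Cxcl10 lie higher in every bleomycin mouse than in any PBS mouse of the same genotype, Ccl6 spreads from 16.0 to 233 CPM in KO PBS mice, and Cxcl14 separates the WT groups but not the KO groups.

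The 4 genes placed in the role of CCR4, CCR6 and CCR8 ligands were Ccl1, Ccl17, Ccl20 and Ccl22. These are chemokine receptors found on T cells. The 4 genes had a median log2 fold change of 1.76 in WT skin, with 2 of 4 past the threshold, and of 1.55 in KO skin, with none past it. Ccl17, a dendritic cell product that binds CCR4, was at 0.406, 0.197 and 0.102 CPM in WT PBS mice and at 1.80, 2.51 and 2.20 CPM in WT BLM mice, by 3.22 ± 0.78 (SE, adjusted p = 0.0147). The call was lost without WT PBS mouse 160 or 161. Ccl17 in KO skin was at 0.0997, 0.229 and 0.626 CPM under PBS and at 0.398, 2.51 and 1.98 CPM under bleomycin, where mouse 141 lay inside the PBS range (2.33 ± 0.74, adjusted p = 0.157). Ccl22, its partner ligand of CCR4, rose from 3.68–5.55 to 13.7–22.6 CPM in WT skin, by 1.97 ± 0.54 (adjusted p = 0.0224), and that call was lost without WT BLM mouse 147 or without any 1 WT PBS mouse. In KO skin Ccl22 was 4.19–14.7 CPM under PBS and 7.62–31.8 CPM under bleomycin. Ccl1 and Ccl20, ligands of CCR8 and CCR6, had WT log2 fold changes of 1.55 ± 0.67 and 0.99 ± 0.59 (adjusted p = 0.0917 and 0.208), without overlap between the WT groups.

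The CXCR3 ligands Cxcl9, Cxcl10 and Cxcl11, which interferons induce and which draw activated T cells, had a median log2 fold change of 1.67 in WT and 1.21 in KO skin. Cxcl10 (chr5:92346638-92348889, minus strand) ran from 1.86 to 4.46 CPM in WT PBS and from 8.09 to 21.7 CPM in WT BLM mice, a rise of 2.45 ± 0.53 (SE, adjusted p = 0.0102). In KO mice it ran from 2.60 to 6.56 CPM under PBS and from 9 to 19.6 CPM under bleomycin, without overlap (1.69 ± 0.51, adjusted p = 0.148). Cxcl11 rose by 1.67 ± 0.45 (adjusted p = 0.0210) on 2 to 5 counts per WT PBS and 9 to 13 counts per WT BLM mouse, and that call was lost without WT PBS mouse 159 or 161 or WT BLM mouse 147. Cxcl9 was 1.83–9.77 CPM in WT PBS and 6.81–11.2 CPM in WT BLM mice, which overlapped because WT PBS mouse 159 was at 9.77 CPM (0.89 ± 0.65, adjusted p = 0.295). GENCODE M21 lists Cxcl11 as a polymorphic pseudogene, so the rise of its RNA is not evidence of a working protein in these mice.

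Of the CXC ligands of resting tissue (Cxcl12, Cxcl13 and Cxcl14), 1 of 3 fell in WT skin and 0 of 3 passed in KO skin. Cxcl14 (chr13:56288643-56296551, minus strand), which epidermis and hair follicles make, was at 245, 232 and 257 CPM in WT PBS mice and at 40.2, 45.0 and 38.8 CPM in WT BLM mice. It fell by 2.57 on the log2 scale (SE 0.48, adjusted p = 0.00647), the one ligand that fell, and the call held with any 1 mouse left out. In KO PBS mice it was at 311 CPM in mouse 136 but at 87.2 and 121 CPM in mice 137 and 139, and in KO BLM mice at 196 CPM in mouse 141 but at 74.2 and 93.6 CPM in mice 143 and 144. The KO groups therefore overlapped (-0.51 ± 0.45, adjusted p = 0.536), and the log2 fold change moved between -1.03 and 0.22 as 1 KO mouse was left out. The 5 mice with the highest Cxcl14 were the 5 with a growing hair sum of at least 37420 CPM, and the part of the hair stage in the level of Cxcl14 was not tested.

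Cxcl12, the fibroblast-derived ligand of CXCR4, was at 213, 249 and 204 CPM in WT PBS mice and at 78.5, 252 and 193 CPM in WT BLM mice, which overlapped (-0.35 ± 0.38, adjusted p = 0.487). In KO PBS mice it was at 329, 184 and 329 CPM and in KO BLM mice at 144, 89.7 and 98.9 CPM. Every KO BLM mouse was below every KO PBS mouse, with a log2 fold change of -1.34 ± 0.38 that did not pass in edgeR (adjusted p = 0.136) and passed in DESeq2 (adjusted p = 0.0155). Cxcl13, which attracts B cells, was 0.744–3.36 CPM in WT PBS and 0.431–0.815 CPM in WT BLM mice, and 1.89–9.09 CPM in KO PBS and 0.551–2.01 CPM in KO BLM mice. Its log2 fold changes, -1.87 ± 0.73 in WT and -2.24 ± 0.71 in KO skin, had adjusted p of 0.0688 and 0.156 in edgeR and of 0.0246 and 0.0255 in DESeq2.

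Of the pair of ligands made as membrane-bound proteins, Cxcl16, the ligand of CXCR6, rose and Cx3cl1, the ligand of CX3CR1, did not. Cxcl16 was at 35.8, 26.6 and 26.6 CPM in WT PBS mice and at 101, 89.2 and 126 CPM in WT BLM mice, a log2 fold change of 1.83 ± 0.36 (SE, adjusted p = 0.00778). The KO PBS mice were at 26.6, 50.5 and 56.4 CPM and the KO BLM mice at 48.6, 114 and 120 CPM. KO BLM mouse 141 was below KO PBS mice 137 and 139 (1.09 ± 0.35, adjusted p = 0.160), and without mice 136 and 141 the value was 1.13 ± 0.19 (adjusted p = 0.00985). Cx3cl1 stayed between 16.7 and 30.9 CPM in all 12 mice, with a 95% interval for the log2 fold change of -0.24 to 0.36 in WT and 0.06 to 0.65 in KO skin.

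Ccl11, Ccl24, Ccl19, Ccl25, Ccl27a, Ccl28 and Xcl1 did not pass the threshold in either genotype. The eosinophil attractants Ccl11 and Ccl24 had WT log2 fold changes of -0.01 ± 0.54 and 0.81 ± 0.65 and KO values of -1.14 ± 0.55 and -0.69 ± 0.65. Ccl19, a ligand of CCR7 on dendritic cells and naive T cells, ranged from 0.0707 to 3.14 CPM over the KO mice. The keratinocyte ligand Ccl27a ran from 18.6 to 51.1 CPM over the 12 mice and differed by -0.09 ± 0.31 in WT and -0.05 ± 0.31 in KO skin. Ccl25, a ligand of CCR9, was lower in every WT BLM than in any WT PBS mouse (3.41–4.92 against 6.06–7.37 CPM), with -0.66 ± 0.30 (adjusted p = 0.106). Ccl28 and the T and NK cell product Xcl1 had WT log2 fold changes of 0.71 ± 0.50 and 0.42 ± 0.40.

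**Figure D4:**
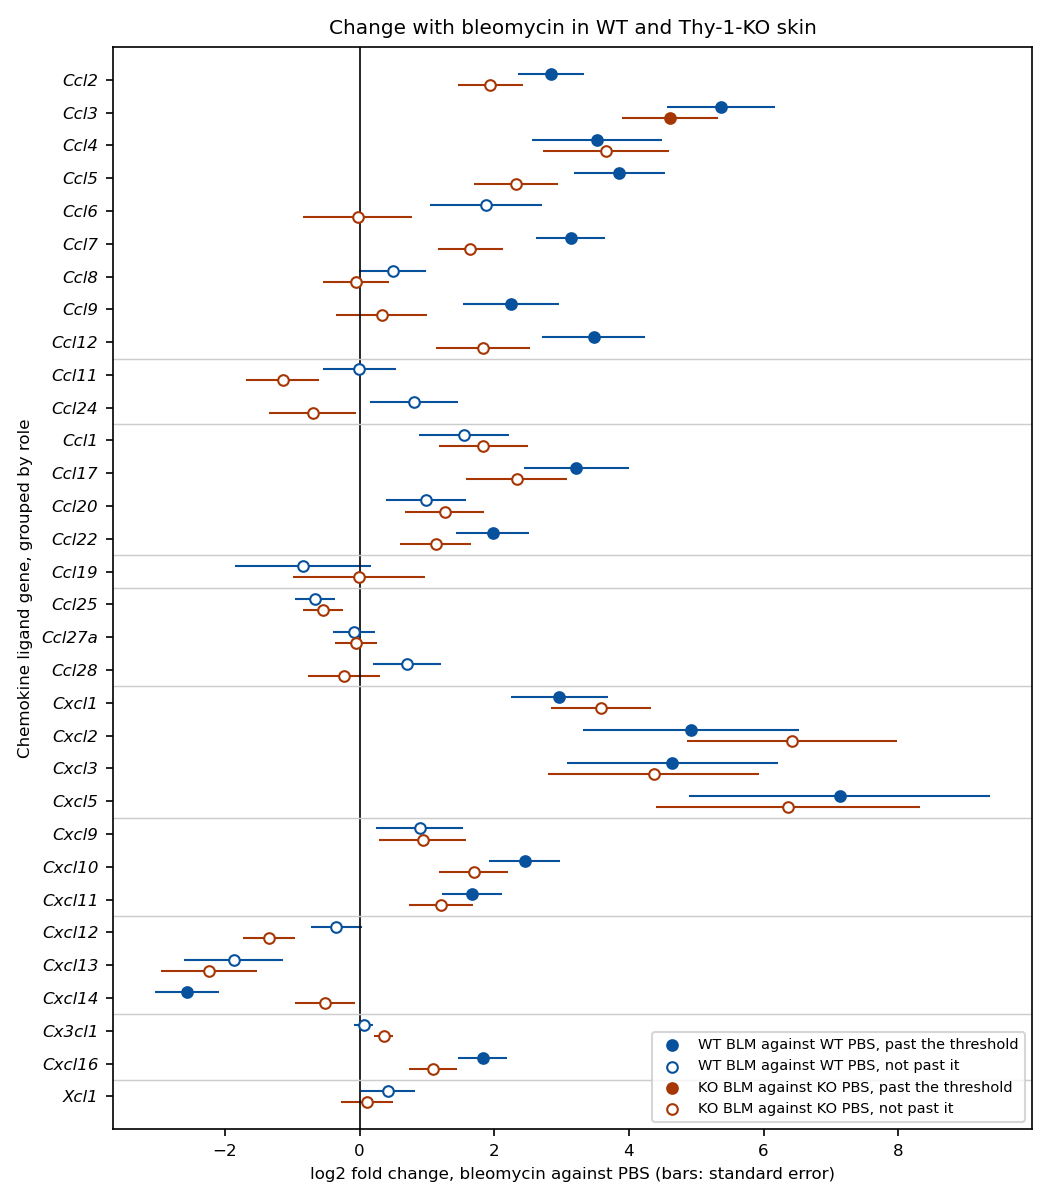
Log2 fold change of bleomycin against PBS for each ligand in WT (blue) and KO (red) skin, with bars for the standard error; filled points passed an adjusted p of 0.05 in edgeR. Blue points are filled for 17 ligands and red points for Ccl3, while 28 of 32 pairs lie on the same side of 0 (not counted over all genes).

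Set side by side, the WT and KO changes had a similar order. Over the 32 ligands the log2 fold changes of the WT and KO comparisons, which share no mouse but share genes and the fitted spread, had a Pearson r of 0.905 and a Spearman rho of 0.901, given as a description across genes, which are not replicates. All 17 ligands called in WT skin had the same sign in KO skin, and 14 of the 17 had an unadjusted p under 0.05 there. The correlations and these counts were not taken over all genes, so they do not show that the ligands differ from other genes in this. The 16 that rose in WT skin had a median log2 fold change of 3.18 in WT and 2.13 in KO skin, and 14 of the 17 were smaller in size in KO skin. Since the 17 were chosen by their WT values, their smaller KO values are a description and not a test of a difference.

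The difference between the responses itself (KO change minus WT change) passed the threshold for 0 of 32 ligands in edgeR, where 0% of all genes passed. At an unadjusted p under 0.05 there were 2 of 32, Cxcl14 and Ccl7 (31.1% of all genes), and DESeq2 called 1, Cxcl14 (17.8% of all genes). For Cxcl14 the difference was 2.05 ± 0.64, with a 95% interval of 0.63 to 3.48 and an adjusted p of 0.0871 in edgeR and 0.0164 in DESeq2. For Ccl7 it was -1.49 ± 0.67 (adjusted p = 0.160). Without KO PBS mouse 136, 3 of 32 ligands passed, Cxcl14, Ccl7 and Ccl9, where 39.9% of all genes did, and 3 passed without both mice 136 and 141, where 38.6% did. The intervals were wide for the rest: for Ccl3 the difference was -0.76 (95% interval -3.08 to 1.56), for Cxcl1 0.62 (-1.64 to 2.88) and for Ccl2 -0.90 (-2.36 to 0.56), which includes both no difference and a large one.

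Under PBS alone, KO and WT skin differed for 0 of 32 ligands in edgeR (0.0655% of all genes) and for 0 in DESeq2 (3.69% of all genes), and for 3 at an unadjusted p under 0.05 (20.4% of all genes). Those were Cx3cl1, Ccl7 and Xcl1, with log2 fold changes of -0.39 ± 0.14, 1.15 ± 0.49 and 0.92 ± 0.40 (adjusted p = 0.206, 0.235 and 0.238). Cx3cl1 was lower in every KO PBS than in any WT PBS mouse (16.7–21.9 against 25.3–27.2 CPM), the 1 ligand without overlap (18.9% of all genes). Without mouse 136, 8 ligands passed (36.7% of all genes), and without both mice 136 and 141, 11 did (40.9% of all genes): Ccl5, Ccl7, Ccl9, Ccl12, Ccl22, Cxcl13, Cxcl16 and Xcl1 were higher and Cxcl14, Ccl25 and Cx3cl1 lower in KO PBS. The calls over all genes went from 12 to 7648 in the same step, and the 2 KO PBS mice then left are those with hair sums of 257 and 409 CPM, against at least 48897.5 CPM in the WT PBS mice. Genotype and hair stage cannot be told apart in that comparison.

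Under bleomycin, KO and WT skin differed for 0 of 32 ligands in edgeR (0.0928% of all genes), for 2 at an unadjusted p under 0.05 (16.6% of all genes) and for 1 in DESeq2 (2.99% of all genes). The median log2 fold change was -0.09, and the groups did not overlap for 5 ligands (27.5% of all genes). Cxcl14 was higher in every KO BLM than in any WT BLM mouse, by 1.55 ± 0.46 (adjusted p = 0.233 in edgeR and 0.0317 in DESeq2), and by 1.02 ± 0.16 (adjusted p = 0.0225) without mice 136 and 141. The growing hair sum was also higher in KO BLM than in WT BLM mice, at 3868 to 37420 against 243 to 944 CPM. Genotype and hair stage cannot be told apart there. Ccl28, a mucosal and epithelial ligand of CCR10, was lower in every KO BLM mouse (0.177–0.398 against 0.525–0.861 CPM), by -1.24 ± 0.52 (adjusted p = 0.284). Ccl6 and Ccl9 were also lower in each KO BLM mouse than in any WT BLM mouse, with log2 fold changes of -0.72 ± 0.81 and -0.78 ± 0.68 that did not pass.

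Of 22 receptor genes 20 were tested, and 8 rose, 0 fell and 12 did not pass in WT skin (19.8% of all genes rose and 14.1% fell), while 0 passed in KO skin, where 0.306% of all genes did. The largest rises past the threshold were those of Cxcr2, the neutrophil receptor of Cxcl1, Cxcl2, Cxcl3 and Cxcl5 (0.68 ± 0.20 CPM in WT PBS and 9.86 ± 7.14 CPM in WT BLM), and Cx3cr1, the receptor of Cx3cl1 (1.99 ± 0.85 and 23.3 ± 2.31 CPM). Ccr2, Ccr1 and Ccr7 rose too, with log2 fold changes of 2.78 ± 0.55, 2.64 ± 0.78 and 2.46 ± 0.53. In KO skin Cxcr2 was at 0.62 ± 0.42 CPM under PBS and 8.25 ± 5.89 CPM under bleomycin (log2 fold change 3.74 ± 0.85, adjusted p = 0.0897), and Cx3cr1 at 2.90 ± 1.42 and 10.9 ± 2.37 CPM (1.91 ± 0.41, adjusted p = 0.0780). With DESeq2 the adjusted p in KO skin was 0.000102 for Cxcr2, 0.000435 for Cx3cr1 and 0.00175 for Ccr7. It was 0.632 for Ccr2 and 0.392 for Ccr1. Cxcr1 had at most 4 counts in any mouse.

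Of 17 cytokine genes known to induce chemokines, 8 were tested, and 4 rose in WT skin (19.8% of all genes) and 0 passed in KO skin (0.306% of all genes). Il1b, a signal that switches on the CXCR2 ligands, went from 1.68 ± 0.16 to 7.64 ± 2.79 CPM in WT skin (2.19 ± 0.54, adjusted p = 0.0155) and from 1.38 ± 0.43 to 10.5 ± 6.99 CPM in KO skin (2.93 ± 0.55, adjusted p = 0.0553). With DESeq2 the adjusted p in KO skin was 9.39e-06 for Il1b, 0.0314 for Tnf and 0.0300 for Ltb, all higher under bleomycin. It was not under 0.05 for the others of the 8. Of 12 genes of proteases that trim chemokines or shed them from membranes, 11 were tested, and 6 rose and 1 fell in WT skin (19.8% and 14.1% of all genes) and 0 passed in KO skin (0.306% of all genes). The gene that fell was Dpp4, which removes the first residues of many chemokines, with -2.29 ± 0.34 (adjusted p = 0.00405) in WT and -1.38 ± 0.33 (adjusted p = 0.0968) in KO skin. With DESeq2 the adjusted p of Dpp4 in KO skin was 0.00249. It was also under 0.05 there for Mmp13, Mmp12, Mmp8 and Mmp9, which were higher under bleomycin (3.43e-07, 0.00222, 0.0151 and 0.0391). For the other protease genes it was not.

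Marker genes of cell types are given beside the ligands. The counts called stand against 19.8% of all genes higher and 14.1% lower in WT skin and 0.306% called in KO skin, so a list with 0 genes called in KO skin is at that share. Of 15 macrophage genes 12 rose in WT skin, where their sum was 490 to 1106 CPM under PBS and 2529 to 3678 CPM under bleomycin. In KO skin 1 of 15 rose, Ly6c2, and the sum was 517 to 2425 CPM and 1729 to 2413 CPM. Lyz2 alone averaged 1282 CPM in WT BLM and 922 CPM in KO BLM mice. The median log2 fold change over the list was 2.20 in WT and 0.483 in KO skin. Cd163 went the other way, with -1.24 ± 0.58 in WT and -3.07 ± 0.62 in KO skin (edgeR adjusted p = 0.117 and 0.0681). With DESeq2 its adjusted p in KO skin was 1.49e-05. Mrc1 and Mertk were also lower in KO BLM, by -1.04 ± 0.62 and -0.697 ± 0.236, and did not pass. KO PBS mouse 137, the highest in Ccl6 of the KO mice at 233 CPM, also had the highest macrophage sum of the KO mice, 2425 CPM, and mouse 136, the lowest in Ccl6, had the lowest, 517 CPM. The order differed between these extremes. KO BLM mice 143 and 144 had macrophage sums of 2396 and 2413 CPM, with Ccl6 at 96.3 and 124 CPM. KO PBS mouse 139 had a sum of 1890 CPM with Ccl6 at 77.3 CPM, and KO BLM mouse 141 had 1729 CPM with 101 CPM. Of 11 neutrophil genes 6 were tested, of which 4 rose and 1 fell in WT skin and 0 passed in KO skin, and the defining marker Ly6g had 0 to 2 counts in every mouse. The neutrophil sum was 10.1 to 14.8 CPM in WT PBS, 64.6 to 444 CPM in WT BLM, 10.3 to 23.5 CPM in KO PBS and 19.5 to 287 CPM in KO BLM mice, and mouse 141 was at the low end of KO BLM in both that sum and in Cxcl1. Without S100a8 and S100a9 the sum of the other 9 neutrophil genes was 3.75 to 4.51 CPM in WT PBS, 12.8 to 29.7 CPM in WT BLM, 2.39 to 9 CPM in KO PBS and 11.5 to 17 CPM in KO BLM mice. Most of that sum was 1 gene, Csf3r. Its mean was 3.45 CPM in WT PBS, 20.1 CPM in WT BLM, 5.52 CPM in KO PBS and 12.3 CPM in KO BLM mice. Of 13 T cell genes 10 rose in WT skin and 0 in KO skin, with sums of 41.8 to 47.8 CPM in WT PBS and 89.8 to 142 CPM in WT BLM, and 40.3 to 99.2 CPM in KO PBS and 104 to 186 CPM in KO BLM mice. Of 10 skeletal muscle genes 9 rose in WT skin, from 5450–6050 to 18068–37957 CPM, and 0 passed in KO skin. There the sum was 6853 CPM in KO PBS mouse 136, 28292 and 25084 CPM in mice 137 and 139, and 10613 to 20035 CPM in KO BLM mice. The part of these cell types in the ligand levels was not tested.

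**Figure D5:**
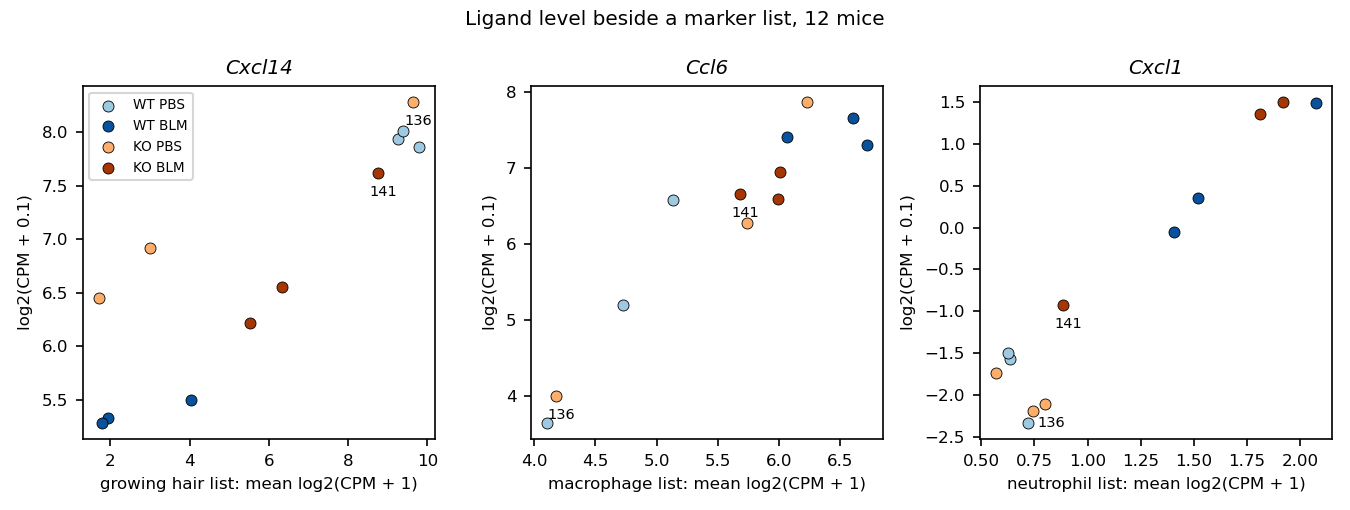
Level of 3 chemokine ligands, as log2(CPM + 0.1), against the mean log2(CPM + 1) of a marker list in each of 12 mice, coloured by group, with KO mice 136 and 141 numbered. Cxcl14 is plotted against growing hair genes, Ccl6 against macrophage genes and Cxcl1 against neutrophil genes, and in each panel mouse 136 lies among the WT PBS mice on the ligand axis or beyond them.

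The mice of a group did not rank evenly. KO BLM mouse 141 was the lowest of its 3 mice for 21 of 32 ligands, KO PBS mouse 136 the lowest for 18 and WT BLM mouse 145 the lowest for 18. Several ligand genes overlap another gene on the opposite strand in GENCODE M21 (Ccl2, Ccl6, Ccl19, Ccl25, Ccl27a, Cxcl10, Cxcl11, Cxcl16 and Xcl1). The libraries were stranded, and whether the counting used strand is not given in the sources used here, so reads of the partner gene may be included for these 9.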

How the data were processed

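Skin RNA of 12 mice (3 per group, numbered as in the labels) was analysed. Per the methods, the authors made stranded mRNA libraries, sequenced read pairs and analysed them with DESeq2. The authors deposited whole-number read counts per gene without normalization, which were used as they stand. The submitters' processing notes name GRCm38.p6 and MultiQC 1.7, and the aligner, counting tool and use of strand are not given in the sources used here.

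Counts were filtered (filterByExpr with a minimum count of 10 and a minimum total of 15), TMM-normalised and fitted in edgeR 4.0.16 (R 4.3.3) with 4 group means, quasi-likelihood F tests and Benjamini-Hochberg adjustment over 18311 genes. The biological coefficient of variation was 34.9%, on 8 residual degrees of freedom. The SE is the log2 fold change divided by the square root of F. The methods call the control mice littermates, and the litter of each mouse is not given in the sources used here, so WT and KO mice may share litters. No 2 libraries held identical counts. Positions and exon lengths came from GENCODE M21, in which 98.1% of symbols had 1 match. Per-kilobase levels divide CPM by the union of exons. Promoter windows came from RefSeq. The steps were tested on simulated data.

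Every ligand with at least 10 counts was placed in a role. Values for every mouse are given for the 10 called ligands with the largest change in a comparison, the 5 highest per length, and up to 6 called by DESeq2 where edgeR called none, and other ligands by range. 1 receptor gene is not reported here. The ligands, roles and lists were chosen with earlier results of these data known. Alternatives were DESeq2 1.42.0, RLE size factors, no filter, a mean of at least 1 CPM, only the 2 groups compared, each mouse left out, and KO mice 136 and 141 left out together.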

Additional observations from a re-analysis of the deposited data

How the results depend on the processing

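The number of the 32 ligands called in WT skin was 17, and it was 13 to 20 under the alternatives that kept every WT mouse and 9 to 20 with 1 mouse left out. In KO skin it was 1, and became 12 with DESeq2 and 2 without a filter on low counts. It was 0 with only the 2 groups compared, where 0% of all genes passed. It was 11 without mice 136 and 141, and 0 to 8 with 1 mouse left out. For KO PBS against WT PBS it was 0, and became 11 without both mice and 0 to 8 with 1 mouse left out (8 without mouse 136). For KO BLM against WT BLM it was 0, and became 1 with DESeq2 and 1 without both mice, and 0 to 1 with 1 mouse left out (1 without mouse 136). For the difference between the responses it was 0, and became 1 with DESeq2, 3 without both mice, and 0 to 3 with 1 mouse left out (3 without mouse 136). The 13 came from the filter at a mean of 1 CPM. It removed the called ligands Cxcl1, Cxcl3, Cxcl11 and Ccl4, with means of 0.947, 0.779, 0.199 and 0.962 CPM, which were then not tested. Fits of only 2 groups have fewer mice to estimate the spread, and the cause of the other shifts was not tested. RLE size factors changed no count.

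Among ligands named with a call or an unadjusted p under 0.05, 689 recomputed values kept their side of the threshold and their sign, 46 lost a call, 57 gained one and 0 changed sign. These were chosen by their p in the same data, so their stable sign is not separate support. Of the other ligands, 4 of 12 changed sign in some alternative in WT skin and 8 of 14 in KO skin. For KO against WT it was 14 of 29 under PBS and 18 of 30 under bleomycin, and 13 of 30 for the difference between the responses. No paired analysis was possible because every mouse has its own number and its litter is not given. With 0 to 10 counts per PBS mouse, the fold changes of Cxcl1, Cxcl2, Cxcl3, Cxcl5, Ccl3 and Ccl4 are limited by counting error as well as by the spread between mice.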

Other observations

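Pf4 and Ppbp, platelet chemokines of the CXC family whose symbols fall outside the rule, did not pass the threshold in any of the 5 comparisons in edgeR. Pf4 was at 13.2 ± 7.53 CPM in WT PBS, 34.9 ± 12.9 CPM in WT BLM, 31.1 ± 23.8 CPM in KO PBS and 28.6 ± 10.2 CPM in KO BLM mice (mean ± SD, n = 3). Ppbp had 0 to 4 counts in WT PBS and 11 to 13 counts in WT BLM mice, with a log2 fold change of 2.52 ± 1.05 (edgeR adjusted p = 0.0825, DESeq2 adjusted p = 0.0493).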
